A study of Mus musculus with 2 samples.

Results

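The replication-dependent histone genes are the members of the clustered histone families. They were taken as all genes whose symbol begins with Hist1h, Hist2h, Hist3h or Hist4h, which gave 67 of the 32285 genes in the files. They comprised 6 genes for the linker histone H1, 18 for H2A, 18 for H2B, 12 for H3 and 13 for H4. Of them, 54 lie on chromosome 13, 10 on chromosome 3, 2 on chromosome 11 and 1 on chromosome 6. The rule used names and no measured value.

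Nuclei of whole mouse kidneys were profiled by single-nucleus RNA sequencing with a 3′ droplet kit at embryonic day E18.5 and postnatal day P3, with 1 library per age. The E18.5 kidneys carried floxed Myc and Mycn alleles (Mycf/f;Mycnf/f, no Cre) on a mixed background, and the P3 kidneys were wild type, C57BL/6J by the labels, whereas the methods of the study give a mixed background for both ages. Kidneys from male and female animals were pooled at both ages, so animals cannot be told apart. Age, genotype, background, library and the release of the counting software change together, and no value below separates them.

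After quality filtering, 21270 of 21600 barcodes were kept at E18.5 and 11765 of 12216 at P3, with 77321253 and 70055219 unique molecular identifiers (UMIs, counts of distinct captured transcripts). The median nucleus held 3132.5 UMIs at E18.5 and 4534 at P3. Doublet calling marked 16.4% of nuclei at E18.5 and 16.8% at P3, and these were kept. The libraries shared 69 barcode sequences. With 1 library per age there is no replicate error, so no p-value is given. All intervals in brackets are exact 95% intervals that cover counting error only, and nuclei of 1 library are not replicates of a condition.

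Histones package DNA: pairs of H2A, H2B, H3 and H4 form the nucleosome core, and H1 binds the linker DNA between cores. The replication-dependent genes supply this protein while DNA is copied in S phase. Their messages are unusual among those of animals, because most lack introns and end in a conserved stem-loop instead of a poly(A) tail. The stem-loop binding protein Slbp holds this hairpin, the U7 small nuclear ribonucleoprotein directs the cut behind it, and the message is destroyed when replication stops. In the late embryonic and newborn mouse kidney, nephron progenitors and other immature cells still divide, while podocytes are known to leave the cell cycle as they mature.

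The 3′ ends of these genes were read from the genome because a kit that primes on poly(A) or A-rich sequence depends on them. The search used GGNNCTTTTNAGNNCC, on the transcript strand of the annotated transcripts (GENCODE M21, mm10), and found it in 44 of 67 members (65.7%). Among other protein-coding genes it was present in 34 of 21558 (0.158%), and among other protein-coding genes with 1 exon in 2 of 1189. The annotation of many of the remaining members ends at or near the stop codon, so the absence of a match says only that these letters are not in the annotated transcript. The forms found are shown once each, with the paired arms of the hairpin in capitals and the loop in lower case, from mm10:
Hist1h2ap, chr13:21833029-21833044, minus strand: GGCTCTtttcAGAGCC
Hist1h4d, chr13:23581950-23581965, plus strand: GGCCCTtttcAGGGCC
Hist1h3c, chr13:23745047-23745062, minus strand: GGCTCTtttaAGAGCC
Hist1h4i, chr13:22040966-22040981, minus strand: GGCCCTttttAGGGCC
Hist1h4j, chr13:21735437-21735452, plus strand: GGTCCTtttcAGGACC
Hist2h2ac, chr3:96220418-96220433, minus strand: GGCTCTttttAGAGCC
The first form was carried by 26 members, the second by 7, the third by 6, the next forms by 2 each and the last by 1. A poly(A) signal (AATAAA or ATTAAA) stood after the stem-loop within the annotated transcript in 16 members, among them Hist1h1c, Hist1h4d and Hist1h2be.

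The members differed widely in level, and a few genes held much of the total. At E18.5 they summed to 82069 UMIs, or 1061 CPM (UMIs of the members per 1000000 UMIs of all genes; 1054–1069), which is 3.86 UMIs per nucleus. At P3 they summed to 42189 UMIs, 602 CPM (596–608) and 3.59 UMIs per nucleus. The 4 members with the most UMIs held 47.6% of the total at E18.5 and 45.8% at P3. At least 1 histone UMI was found in 96.6% of nuclei at E18.5 and 88.5% at P3, and UMIs of at least 2 distinct members in 84.3% and 65.5%. Of the 67 members, 58 had at least 100 UMIs over both libraries and 9 had fewer. Hist2h2aa2, Hist1h2aa and Hist1h2ba were at 0 in both, the latter pair being genes for testis-type H2A and H2B, and Hist1h2bq had 1 UMI. A count of 0 allows up to 3 UMIs per library by counting error alone. Hist2h2aa2 shares 100% of its stretches of 90 bases with other members and Hist1h2bq 95.3%, so their counts do not show that they are silent.

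**Figure D1:**
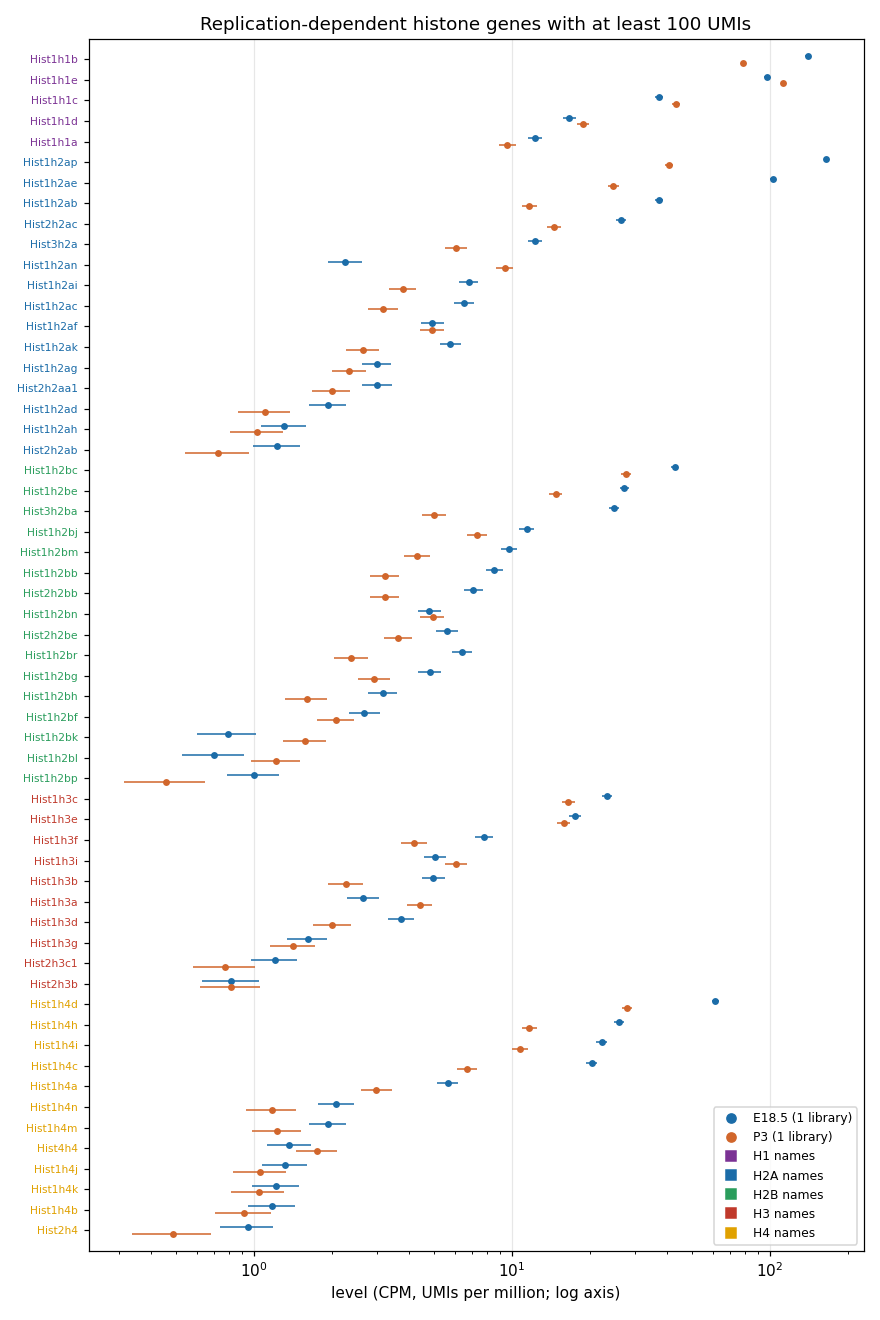
Level of each of the 58 members with at least 100 UMIs, as CPM on a log axis, at E18.5 and P3 (points, 1 library each; bars, exact 95% intervals for counting error). Symbols are colored by histone class, and levels run from under 1 CPM to 165 CPM for Hist1h2ap at E18.5.

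H1 genes, whose products bind linker DNA, were led by Hist1h1b (chr13:21779883-21780625, a gene of 1 exon) with 10815 UMIs at E18.5 and 5533 at P3, or 140 and 79.0 CPM. Hist1h1e had 7503 and 7895 UMIs (97.0 and 113 CPM), Hist1h1c 2869 and 3026 UMIs (37.1 and 43.2 CPM). Hist1h1d was close to equal at the ages with 16.7 and 18.9 CPM, and Hist1h1a lower at P3, with 12.3 and 9.59 CPM. The testis-type Hist1h1t had 12 and 4 UMIs. The H1 genes together held 28.6% of member UMIs at E18.5 and 43.7% at P3.

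H2A genes were led by Hist1h2ap (chr13:21833026-21833507), with 12795 UMIs (165 CPM) at E18.5 and 2853 (40.7 CPM) at P3, followed by Hist1h2ae with 102 and 24.7 CPM. Per kilobase of exon, Hist1h2ap stood at 343 CPM at E18.5, above Hist1h1b at 188 and Hist1h2ae at 146. At P3 Hist1h1b was highest on this scale, at 106 CPM per kilobase, before Hist1h2ap at 84.5 and Hist1h1e at 58.4. A 3′ kit counts ends rather than length, so both scales are given. The share of H2A genes among member UMIs was 35.9% at E18.5 and 21.4% at P3.

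H2B genes were led by Hist1h2bc with 42.7 and 27.7 CPM at E18.5 and P3. Hist1h2be stood at 27.3 and 14.8 CPM and Hist3h2ba at 24.9 and 5.00 CPM. Among H3 genes Hist1h3c had 23.4 and 16.5 CPM and Hist1h3e 17.6 and 15.9 CPM. Among H4 genes Hist1h4d had 61.5 and 27.9 CPM, Hist1h4h 25.9 and 11.7 CPM, and Hist1h4i 22.3 and 10.7 CPM. Core histone genes of these classes thus stood lower at P3 in each named example. Over the 58 members, the CPM at P3 and E18.5 had a Spearman correlation of 0.92 across genes, which share length and mappability in both libraries and are not independent.

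How reads were shared out among near-identical copies bears on single members. Of 67 members, 58 shared at least 1 stretch of 90 bases with another member, and 26 shared 50% or more of their stretches. Hist1h2ap and Hist1h2ao are the extreme case. Their annotated transcripts were identical over 452 of 452 aligned bases and the compared promoter sequence over 200 of 200, yet Hist1h2ap had 12795 and 2853 UMIs and Hist1h2ao 15 and 17. Their ends are printed with the A run in capitals, the stem-loop after it:
Hist1h2ap, chr13:21833027-21833056, minus strand: AAAAAAAAAAAAggctcttttcagagccat
Hist1h2ao, chr13:21810886-21810915, plus strand: AAAAAAAAAAAAggctcttttcagagccat
The run of 12 A lies just before the hairpin in both, so these 30 bases do not tell the copies apart. Annotated transcripts end 3 bases after the stem-loop in Hist1h2ap and 31 bases after it in Hist1h2ao. The levels of both genes are therefore uncertain as levels of a single copy. The 7 members with an A run of 8 or more held 34.0% of member UMIs at E18.5 and 21.6% at P3. Over the 58 members the length of the longest A run had a Spearman correlation of 0.024 with CPM per kilobase at E18.5 and −0.057 at P3, given as a description across genes.

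Members of H2A and H2B often lie head to head, and 12 such pairs were separated by at most 500 bases. Partners were unequal in UMIs to differing degrees. At E18.5 the gap ran from 25.8-fold for Hist1h2ap and Hist1h2br to 1.21-fold for Hist1h2ak and Hist1h2bn. Hist1h2ba and Hist1h2aa were both at 0. Hist1h2ap and Hist1h2br, separated by 235 bases, had 12795 and 495 UMIs at E18.5 and 2853 and 167 at P3. Hist1h2ae and Hist1h2bg had 7927 and 372 UMIs, and then 1730 and 205. In Hist1h2ac and Hist1h2bc the H2B gene was the higher, with 3300 against 505 UMIs at E18.5 and 1941 against 222 at P3. At P3 Hist1h2an stood 20.5-fold above its partner Hist1h2bp, with 656 and 32 UMIs, against 2.26-fold at E18.5. Hist1h2ap, Hist1h2br and Hist1h2an share 92.4%, 86.9% and 83.9% of their 90-base stretches with other members. The gaps in their pairs are therefore uncertain as gaps between single copies. The shared promoter of Hist1h2ap and Hist1h2br is shown because these partners differ most among pairs with over 100 UMIs in each gene. The RefSeq sequence (GRCm38.p6, chr13:21833508-21833725, minus strand) has CCAAT boxes on either strand and the TATA box in capitals:
Hist1h2ap and Hist1h2br: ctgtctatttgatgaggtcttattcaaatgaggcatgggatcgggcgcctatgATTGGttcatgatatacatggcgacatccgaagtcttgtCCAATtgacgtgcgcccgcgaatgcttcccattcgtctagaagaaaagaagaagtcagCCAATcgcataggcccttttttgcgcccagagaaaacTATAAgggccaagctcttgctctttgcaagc
It held 3 CCAAT, 1 TATAA and 0 copies of the octamer ATTTGCAT. RefSeq windows of 300 bases were found for 61 members and searched on both strands. CCAAT, bound by the factor NF-Y, was present in 52 of 61 members (85.2%) against 37.8% of 26964 other promoters. It was found in all H1, H2A, H2B and H3 promoters searched and in 3 of 12 of H4. TATAA was present in 48 members (78.7%) against 25.4% of others. The octamer, bound by Oct-1, was present in 13 members (21.3%) against 1.71%, 7 of them for H2A and 6 for H2B. A match is a description of letters, not a site in use.

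The summed level depended strongly on how many UMIs a nucleus had. At E18.5 it was 3186 CPM (3123–3250) in nuclei under 1500 UMIs and 548 CPM (534–562) in nuclei above 8000. At P3 the same bins had 1735 CPM (1670–1802) and 538 CPM (530–546). Nuclei under 2000 UMIs stood 3.68-fold (3.61–3.77) above nuclei over 5000 UMIs at E18.5 and 2.71-fold (2.61–2.81) at P3. In nuclei with no UMI of Top2a or Mki67, genes of dividing cells that are used below, the same ratio was 4.04 (3.88–4.20) and 4.02 (3.83–4.22). In such nuclei at E18.5 the mean histone count was 3.69 UMIs per nucleus under 1500 UMIs and 2.96 from 1500 to 2000. From there it climbed with each bin to 4.4 above 8000, while the total rose. In P3 nuclei with both genes it went from 2.23 to 12.3 UMIs per nucleus.

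**Figure D2:**
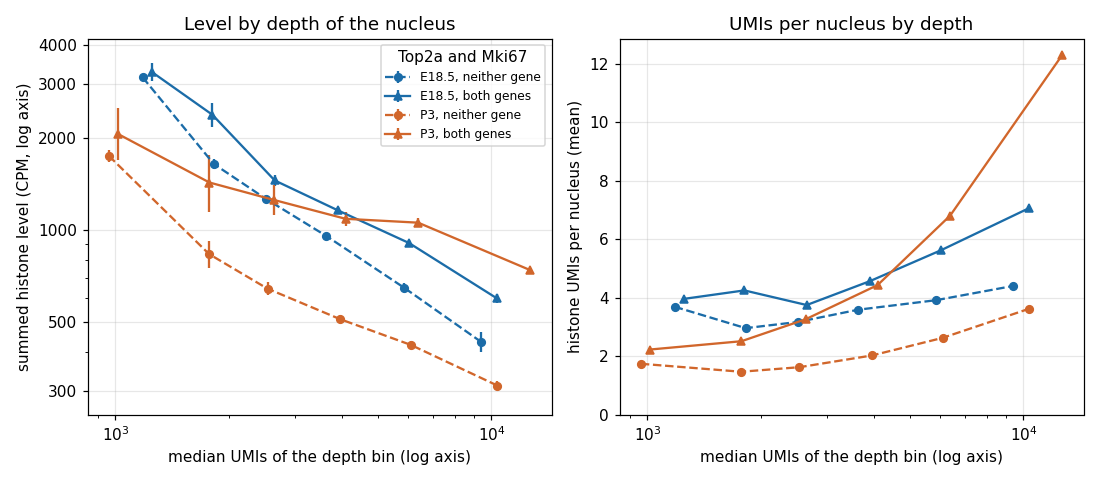
Left, summed histone level (CPM, log axis) against the median UMIs of each depth bin (log axis); right, mean histone UMIs per nucleus over the same bins. Colors are ages, dashed lines nuclei with neither Top2a nor Mki67 and solid lines nuclei with both. Left bars are exact 95% intervals. CPM falls with depth in all 4 sets, and UMIs per nucleus climb most steeply in P3 nuclei with both genes, to 12.3.

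Nearly every member took part. Among genes with at least 50 UMIs over both depth groups, 13.9% of all genes were at least 2-fold higher in the nuclei under 2000 UMIs at E18.5, and 45 of 46 members were. At P3 the figures were 12.8% of all genes and 46 of 52 members. At least 2-fold lower were 11.9% of all genes and 0 of 46 members at E18.5, and 7.63% and 0 of 52 at P3. The median member ratio was 3.73 at E18.5 and 3.18 at P3, against 0.887 and 1.03 over all genes. Other protein-coding genes with 1 exon had medians of 2.51 and 2.11, and ribosomal protein genes 4.17 and 3.75. Histone variants with polyadenylated messages, which are made outside S phase too, had medians of 2.95 and 2.26. By these medians the members stood nearest the ribosomal protein genes. As sums at P3 the members had 2.71, other genes with 1 exon 2.12 and ribosomal protein genes 3.56. Hist1h2be, which has introns, was the lowest of the 58 at E18.5, at 1.34 (1.14–1.56), and stood at 1.30 (0.940–1.77) at P3.

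Much of this lay in 1 unnamed cluster per library. At E18.5 it held 2928 nuclei with a median of 1258 UMIs and 3071 CPM of histone. Its leading genes included Camk1d, Igf2, ribosomal protein genes, Hist1h1b and Hist1h4d. At P3 it held 1566 nuclei with a median of 970 UMIs and 1735 CPM, and was led by hemoglobin and mitochondrial genes. Without these clusters the ratio of nuclei under 2000 to over 5000 UMIs was 2.23 (2.15–2.31) and 1.62 (1.5–1.74). In the same nuclei the summed ribosomal protein genes had 2.97 and 2.53. Other genes with 1 exon had 1.70 and 1.56, and histone variants 2.21 and 1.43. The members thus did not stand nearest the ribosomal protein genes there. Over all nuclei, mitochondrial and hemoglobin UMIs moved in the same direction with depth, by 4.04-fold and 4.67-fold at E18.5 and 5.84-fold and 6.73-fold at P3. Whether free RNA takes part in these levels was not tested.

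Dividing nuclei were marked by Top2a, a topoisomerase that untangles replicated chromosomes, and Mki67, a protein of chromosome surfaces in proliferating cells. Top2a stood at 270 CPM at E18.5 and 165 at P3, and Mki67 at 151 and 152 CPM. UMIs of both were found in 3995 nuclei at E18.5 and 2039 at P3, and of neither in 9760 and 6505. Both genes peak late in the cycle, so the split is weighted to late stages rather than S phase. Between nuclei with both and neither, the Seurat list of G2/M genes had median ratios of 4.28 at E18.5 and 6.98 at P3. The Seurat list of S phase genes had 1.55 and 2.41. The G2/M list includes Top2a and Mki67 themselves, whose own ratios are fixed by the split. Nuclei with neither gene need not be outside the cycle.

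At E18.5 the summed histone level was 970 CPM (956–983) in nuclei with both genes and 1117 CPM (1105–1129) in nuclei with neither, a ratio of 0.868 (0.853–0.884). At P3 it was 824 CPM (812–836) against 482 CPM (474–490), a ratio of 1.71 (1.67–1.75). On the CPM scale the nuclei with both genes were thus lower at E18.5 and higher at P3. Per nucleus, the means were 5.02 against 3.45 histone UMIs at E18.5 and 8.73 against 2.23 at P3. Nuclei with both genes were deeper, with medians of 4356 against 2804 UMIs and 7774 against 3919, and richer in called doublets, 27.6% against 12.3% and 34.0% against 11.1%.

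At matched depth the direction at E18.5 turned. In nuclei of 3000 to 6000 UMIs the level was 1093 CPM (1071–1115) with both genes and 915 CPM (900–931) with neither, a ratio of 1.19 (1.16–1.23). At P3 it was 1086 CPM (1045–1128) against 492 CPM (479–505), a ratio of 2.21 (2.11–2.31). Doublets there were 19.3% against 17.1% and 8.21% against 6.53%. In each of the 6 depth bins the ratio was above 1 at both ages, from 1.04 (0.965–1.12) to 1.45 (1.31–1.59) at E18.5 and from 1.18 (0.962–1.43) to 2.50 (2.39–2.62) at P3. In the bin under 1500 UMIs the interval included 1 at both ages. Hemoglobin genes, which mark red blood cells, moved by 0.926-fold at E18.5 and 2.13-fold at P3 in the same split at 3000 to 6000 UMIs. Over the P3 depth bins their ratio ran from 0.936 to 5.70. In nuclei of 3000 to 5000 UMIs it was 3.07 beside a histone ratio of 2.12, and in nuclei of 5000 to 8000 UMIs 0.996 beside 2.50. Whether hemoglobin RNA bears on the histone ratio was not tested.

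Between the ages, the matched summed values were nearly equal in nuclei with both genes and apart in nuclei with neither. At 3000 to 6000 UMIs the level at P3 over E18.5 was 0.994 (0.952–1.04) with both genes and 0.538 (0.521–0.555) with neither. Among genes with at least 50 UMIs in the comparison with neither, 8.64% of all genes were at least 2-fold lower at P3 and 16 of 40 members were. In the nuclei with both it was 8.16% of all genes and 3 of 39 members. At least 2-fold higher at P3 were 3.07% of all genes and 1 of 40 members with neither, and 1.99% and 4 of 39 with both. In nuclei with neither and with both at this depth, the median member ratio was 0.542 and 0.899. Ribosomal protein genes had medians of 0.296 and 0.351 there, and other genes with 1 exon 0.734 and 0.746. Over nuclei of any depth, 11.5% of all genes and 27 of 52 members were at least 2-fold lower with neither and 5.05% and 1 member higher, against 8.11% and 6 of 53 lower and 4.16% and 6 higher with both.

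By histone class, nuclei with both genes stood highest over the rest in H1 and H2A at P3. There the ratios were 1.90 (1.84–1.96) for H1, 1.76 (1.68–1.85) for H2A, 1.49 (1.41–1.58) for H2B, 1.71 (1.59–1.84) for H3 and 1.26 (1.18–1.35) for H4. At E18.5 they lay between 0.804 (0.781–0.828) for H2A and 0.963 (0.921–1.01) for H2B. At 3000 to 6000 UMIs they ran from 1.14 (1.06–1.22) for H4 to 1.26 (1.14–1.40) for H3 at E18.5, and from 1.94 (1.71–2.20) for H2B to 2.59 (2.35–2.84) for H2A at P3.

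Among genes with at least 50 UMIs over both groups, 2.28% of all genes were at least 2-fold higher in nuclei with both genes at E18.5, and 1 of 55 members was. At P3 it was 3.55% of all genes and 16 of 52 members. At 3000 to 6000 UMIs it was 2.75% of all genes and 2 of 41 members at E18.5, and 4.67% and 16 of 30 at P3. In the other direction, 0.94% of all genes at E18.5 and 1.41% at P3 were at least 2-fold lower with both, or 3.6% and 6.56% at 3000 to 6000 UMIs, and 0 members were in any of these. The median member ratio was 0.863 at E18.5 and 1.65 at P3, against 0.968 and 0.980 over all genes and 0.806 and 0.907 over other genes with 1 exon. Of the 58 members, 57 had the larger ratio at P3, and 52 at 3000 to 6000 UMIs. The share over all genes was not computed for this count, so it says nothing about the members as a set. The medians of the S phase and G2/M lists were also larger at P3, 2.41 against 1.55 and 6.98 against 4.28. Among genes with at least 100 UMIs over both libraries, the interval at P3 lay above 1 in 24.5% of all genes and 39 of 58 members, and below 1 in 26.9% and 0 members. At E18.5 it lay above 1 in 22.8% of all genes and 6 members, and below 1 in 28.9% and 25 members. In nuclei of 3000 to 6000 UMIs it lay above 1 at E18.5 in 17.8% of all genes and 18 members and below 1 in 20.2% and 2 members. At P3 this was 17.4% and 35 members above, and 14.8% and 0 members below. With at least 1000 UMIs required, 1.44% of all genes and 11 of 21 members had an interval below 1 at E18.5 and above 1 at P3.

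**Figure D3:**
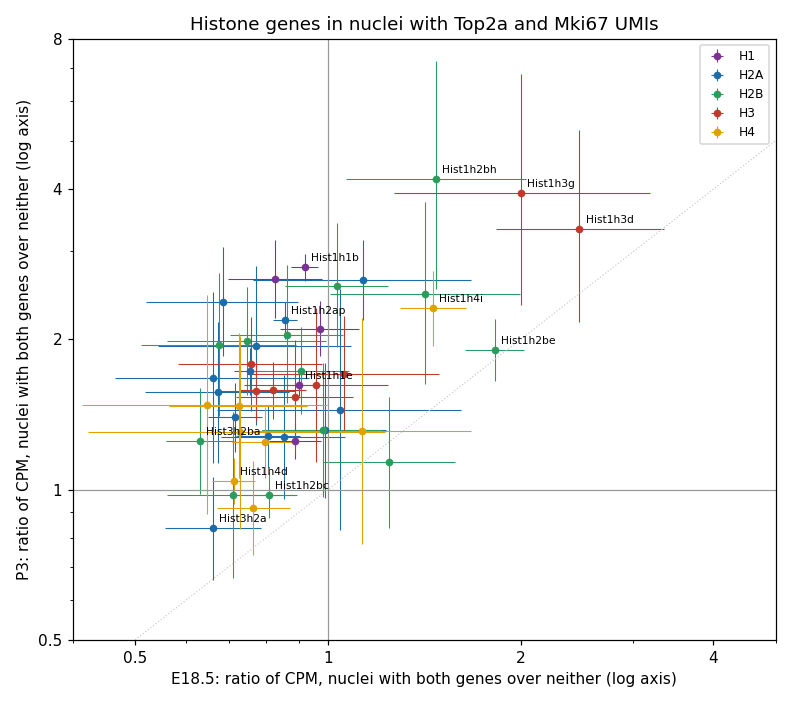
Ratio of CPM in nuclei with both Top2a and Mki67 over nuclei with neither, at E18.5 (horizontal, log axis) and P3 (vertical, log axis), for members with at least 200 UMIs, colored by histone class. Bars are exact 95% intervals, solid lines mark a ratio of 1 and the dotted line marks equal ratios. Most points lie left of 1 at E18.5 and above 1 at P3, and Hist1h3d is farthest right at 2.47.

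The 5 highest ratios at E18.5 came from 2 H3, 2 H2B and 1 H2A gene. Hist1h3d, an H3 gene, had 122 UMIs (5.90 CPM) with both genes and 72 (2.39 CPM) with neither, a ratio of 2.47 (1.83–3.35), and 74 and 31 UMIs at P3, a ratio of 3.33 (2.16–5.24). Hist1h3g had 2.32 and 1.16 CPM at E18.5, just short of the 2-fold mark at 2.0 (1.27–3.18), and 3.92 (2.35–6.79) at P3. Hist1h2be had 37.8 and 20.7 CPM at E18.5, 1.82-fold (1.64–2.03), and 1.91-fold (1.65–2.20) at P3. It was the only one of the 5 highest with nearly the same ratio at the ages. It shares its strand with Hist1h1e, and reads in the overlap cannot be assigned to either. Hist1h2ah, an H2A gene, stood at 1.5 (0.896–2.53) from 33 and 32 UMIs at E18.5 and at 3.37 (1.87–6.32) at P3. Hist1h2bh, an H2B gene, had 1.48 (1.07–2.04) at E18.5 and, with 63 and 21 UMIs, 4.19 (2.52–7.22) at P3, the highest of the 58 at that age.

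The lowest ratios at E18.5 included both chromosome 11 members. Hist3h2ba, an H2B gene, had 18.3 CPM with both genes and 29.0 with neither, 0.632 (0.559–0.714), and its P3 ratio was 1.25 (0.981–1.60). Hist3h2a, its H2A neighbor, had 9.47 and 14.3 CPM, 0.661 (0.556–0.785), and 0.837 (0.658–1.06) at P3, the lowest there. Hist3h2a overlaps Trim17 on the same strand, and reads in the overlap cannot be assigned to either. Hist1h4n stood at 0.648 (0.413–0.996), Hist2h2aa1 at 0.663 (0.465–0.934) and Hist1h2ak at 0.673 (0.518–0.868) at E18.5, and at 1.48, 1.67 and 1.57 at P3. At 3000 to 6000 UMIs the E18.5 intervals of Hist3h2ba and Hist3h2a stayed below 1, at 0.827 (0.687–0.992) and 0.752 (0.575–0.977), and these were the 2 members of 58 for which this was so.

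The most abundant members show the lower ratio at E18.5 and the higher ratio at P3 with more UMIs. Between the ages, their levels in nuclei with both genes did not move alike. Hist1h1b had 132 and 143 CPM at E18.5, 0.920 (0.876–0.965), and 136 and 48.8 CPM at P3, 2.79 (2.62–2.97). Its level with both genes was thus near equal at the ages, and its level with neither was lower at P3. Hist1h2ap had 150 and 175 CPM at E18.5, 0.857 (0.820–0.896), and 63.7 and 29.1 CPM at P3, 2.19 (2.01–2.38). Hist1h1e went from 91.6 and 102 CPM, 0.900 (0.849–0.953), to 148 and 91.2 CPM, 1.62 (1.54–1.71). At 3000 to 6000 UMIs the E18.5 ratios of these members were 1.25, 1.25 and 1.27, with intervals above 1. Hist1h4d, an H4 gene, was different, with 0.712 (0.660–0.768) at E18.5, 1.04 (0.937–1.16) at P3, and 0.974 (0.869–1.09) at matched depth at E18.5.

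Nuclei were also ordered by UMIs of 43 S phase genes (the Seurat list) per 1000 UMIs. In nuclei of 3000 to 6000 UMIs at E18.5 the histone level was 880 CPM (842–920) under 0.5 S phase UMIs and 1101 CPM (1076–1127) at 4 or more, 1.25-fold (1.19–1.32). At P3 it was 455 CPM (435–475) and 984 CPM (943–1026), 2.16-fold (2.04–2.30), and hemoglobin genes moved by 1.66-fold. The level climbed over all 5 bins at both ages. The S phase list and the marking genes each moved with it: in P3 nuclei with neither Top2a nor Mki67, 2 or more S phase UMIs went with 636 CPM (593–682) against 474 CPM (460–487). With both genes it was 1211 CPM (1157–1266) against 850 CPM (789–914). At E18.5 the same pairs were 947 (915–979) against 905 (888–923) and 1128 (1101–1155) against 1016 (979–1054).

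**Figure D4:**
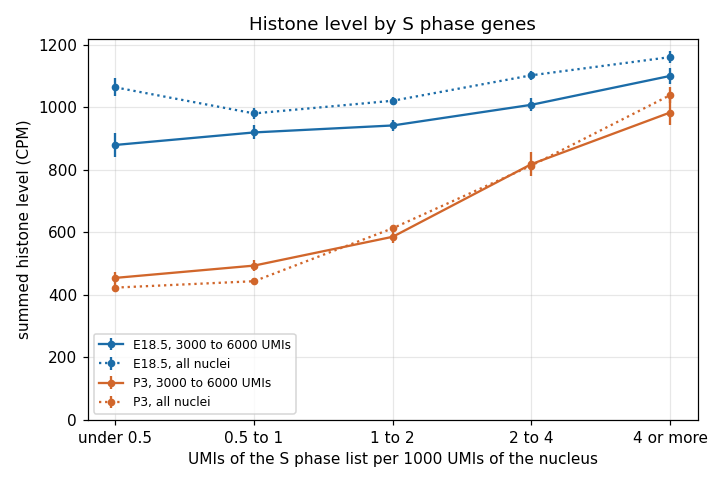
Summed histone level (CPM, from 0) over 5 bins of S phase UMIs per 1000 UMIs of the nucleus. Solid lines are nuclei of 3000 to 6000 UMIs and dotted lines all nuclei; bars are exact 95% intervals. The P3 line climbs from 455 to 984 CPM and the E18.5 line from 880 to 1101 CPM.

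Genes that make, handle or replace these histones were compared on the same split. The list was chosen with earlier results known. Of 12 genes for histone mRNA synthesis and processing, 0 were at least 2-fold higher in nuclei with both genes at E18.5 and 2 at P3, with medians of 1.29 and 1.38. Over all genes the share past 2-fold was 2.28% and 3.55%. Slbp, the stem-loop binding protein, had 1.30 (1.23–1.38) and 1.69 (1.55–1.83), Eri1, an exonuclease that trims the stem-loop, 1.61 (1.46–1.78) and 2.11 (1.91–2.34), and Zfp473, a partner of the U7 complex, 1.97 (1.28–3.04) and 2.71 (1.5–5.09). Of 11 chaperones 2 and 4 passed 2-fold, with medians of 1.25 and 1.34. Asf1b, which hands H3 and H4 to the assembly factors, had 3.92 (3.27–4.72) and 6.01 (4.77–7.64), and Chaf1a, the large subunit of chromatin assembly factor 1, 2.01 (1.82–2.22) and 2.76 (2.44–3.13). Of 11 variants 1 and 2 passed, with medians of 0.934 and 1.21. Cenpa, the H3 of centromeres, had 4.45 (4.14–4.79) and 7.07 (6.34–7.88), and H2afx, which marks DNA breaks when phosphorylated, 0.955 (0.871–1.05) and 2.06 (1.79–2.37). The S phase list had medians of 1.55 and 2.41 and the G2/M list 4.28 and 6.98.

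Nuclei were clustered without the histone and cell cycle genes and named from marker lists. Of all nuclei, 32.8% at E18.5 and 33.4% at P3 lay in clusters that stayed unnamed. Differences were small among several classes at E18.5, without matching for depth. Histone stood at 1120 CPM (1103–1138) in interstitium-like, 1105 (1082–1128) in nephron progenitor-like, 1101 (1067–1135) in early nephron-like, 1066 (1034–1098) in ureteric epithelium-like and 1059 (1031–1087) in endothelium-like nuclei. The mural and smooth muscle-like class stood among them, at 1098 (1012–1189). Each neighbor in this order had a ratio with an interval that included 1. The intervals of the highest and lowest of them, interstitium-like and endothelium-like, did not overlap. Called doublets were uneven here too. The largest endothelium-like cluster had 4.0% called doublets and 1210 CPM (1173–1248), and the others 56.5% and 87.2% and 787 and 805 CPM. Interstitium-like clusters had 3.34% to 6.02% and 1066 to 1166 CPM, so the order of these classes is not that of their clusters with few doublets. Leukocyte-like nuclei stood above the classes named so far, at 1392 CPM (1274–1517). Their median depth was the lowest of these classes, 2300.5 UMIs. Proximal tubule-like nuclei had 942 CPM (920–965), loop of Henle-like 912 (850–978) and podocyte-like 789 (766–813).

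The podocyte-like class was lowest, with nephron progenitor-like nuclei 1.40-fold (1.35–1.45) above it, and called doublets were frequent in its low clusters. Of its 5 clusters, 3 had 72.7% to 90.5% called doublets and 601 to 713 CPM, and the others had 3.79% and 0.741% and 1100 and 1085 CPM. With called doublets removed the ratio was 1.13 (1.08–1.18). In nuclei of 3000 to 6000 UMIs with neither Top2a nor Mki67 it was 1.17 (1.08–1.27).

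At P3 the classes lay farther apart. Leukocyte-like nuclei had 973 CPM (893–1059) and early nephron-like 924 (878–971), a pair whose ratio interval included 1. Endothelium-like nuclei followed at 697 (673–721), podocyte-like at 597 (560–636), interstitium-like at 536 (524–548), ureteric epithelium-like at 504 (476–534), distal tubule-like at 494 (456–535), loop of Henle-like at 474 (443–508) and proximal tubule-like at 449 (440–458). The steps from early nephron-like to endothelium-like, to podocyte-like and to interstitium-like had intervals above 1. The step from interstitium-like to ureteric epithelium-like was barely above 1, at 1.06 (1.0002–1.13), and the later steps from there to the tubule classes included 1. Depth was not matched in this order. The leukocyte-like clusters had medians of 2876 and 1820 UMIs, and the proximal tubule-like clusters 6087, 12125 and 6199. In the deepest of these, with 782 nuclei, 91.2% were called doublets. Mural and smooth muscle-like nuclei numbered 32, at 344 CPM (249–464). A cluster of 894 nuclei led by Eya1 stayed unnamed, with 4 of 6 early nephron and 3 of 6 nephron progenitor markers raised, and had 1041 CPM (1013–1070).

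At P3 the split by Top2a and Mki67 was seen inside several classes at 3000 to 6000 UMIs. Interstitium-like nuclei had 893 CPM (827–962) with both genes and 437 (416–459) with neither, 2.04-fold (1.87–2.23). Endothelium-like nuclei had 1140 (1035–1252) and 521 (477–567), 2.19-fold (1.92–2.49), early nephron-like nuclei 1313 (1121–1529) and 668 (582–763), 1.97-fold (1.60–2.42), and ureteric epithelium-like nuclei 1130 (900–1401) and 454 (399–514), 2.49-fold (1.92–3.21). Loop of Henle-like nuclei, with 16 nuclei carrying both genes, had 431 (295–609) and 434 (382–492) CPM. The remaining ratios came from at most 14 nuclei with both genes and were 3.39 (2.54–4.52) in leukocyte-like, 1.99 (1.32–2.91) in podocyte-like, 1.65 (1.22–2.18) in proximal tubule-like and 0.831 (0.329–1.74) in distal tubule-like nuclei, while 0 mural and smooth muscle-like nuclei had both genes. At E18.5 the same ratios were 1.17 (1.11–1.24) in interstitium-like, 1.18 (1.10–1.27) in nephron progenitor-like, 1.23 (1.12–1.35) in endothelium-like, 1.19 (1.06–1.33) in ureteric epithelium-like and 1.16 (1.06–1.26) in proximal tubule-like nuclei. The interval included 1 in early nephron-like (1.11, 0.998–1.22), loop of Henle-like (1.13, 0.825–1.52), mural and smooth muscle-like (1.11, 0.791–1.54) and podocyte-like nuclei (1.07, 0.927–1.24). It also did in leukocyte-like (0.871, 0.489–1.65) and distal tubule-like nuclei (1.67, 0.95–2.77), each with 3 nuclei in 1 of the groups.

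**Figure D5:**
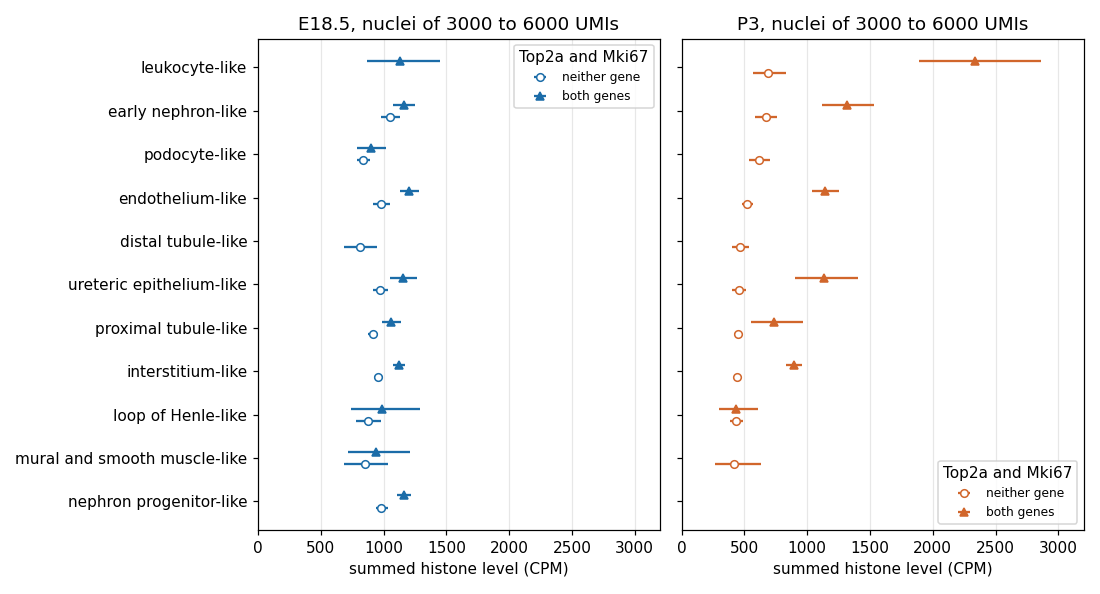
Summed histone level (CPM, from 0) by nuclei class at E18.5 (left) and P3 (right), in nuclei of 3000 to 6000 UMIs with neither (open circles) or both (filled triangles) of Top2a and Mki67, for groups of at least 10 nuclei; bars are exact 95% intervals. Circles lie between 808 and 1052 CPM at E18.5 and between 419 and 690 CPM at P3.

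Nuclei thinned to 1000 UMIs each gave the share with at least 1 histone UMI at an equal number of UMIs. This left out 286 shallower nuclei at E18.5 and 930 at P3. Thinning keeps the histone fraction of a nucleus, which fell with its original depth, so the shares still carry that dependence. The share was 67.9% (67.2–68.5) at E18.5 and 44.4% (43.5–45.4) at P3, against 96.6% and 88.5% unthinned. In podocyte-like nuclei, a type known to leave the cycle, it was 59.9% (57.1–62.7) and 42.9% (37.1–48.9), with median depths of 3806.5 and 4812.5 UMIs against 3132.5 and 4534 in all nuclei. The intervals of all nuclei and of this class were apart at E18.5 and overlapped at P3. Of the podocyte-like nuclei, 38.7% at E18.5 and 23.8% at P3 were called doublets. Proximal tubule-like nuclei had 62.3% and 34.1%, and early nephron-like 68.5% and 59.0%.

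The level at P3 over E18.5 was 0.567 (0.561–0.574) in CPM and 0.929 in histone UMIs per nucleus, since the total per nucleus was 1.64-fold larger at P3. In the same libraries the summed ribosomal protein genes had 0.248, other genes with 1 exon 0.653, mitochondrial genes 0.639, the S phase list 0.720 and hemoglobin genes 0.170. Fewer nuclei that make histone, less histone RNA in each and a different captured share of it cannot be told apart in the sums. Among genes with at least 50 UMIs, 10.4% of all genes were at least 2-fold lower at P3 and 17 of 60 members were. At least 2-fold higher were 5.21% of all genes and 2 of 60 members, Hist1h2an and Hist1h3h, the latter with 21 and 64 UMIs. These genes share 83.9% and 93.2% of their 90-base stretches with other members, so their levels are uncertain as levels of a single copy. Whether reads of such copies were assigned alike in both libraries was not tested. The median member ratio was 0.611, against 0.918 over all genes and 0.712 over other genes with 1 exon.

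Among the 58 members with at least 100 UMIs, the H2A gene Hist1h2an stood highest, with 174 UMIs (2.25 CPM) at E18.5 and 656 (9.36 CPM) at P3, 4.16-fold (3.52–4.95). The H2B genes Hist1h2bk and Hist1h2bl followed with 61 and 110 UMIs, 1.99-fold (1.44–2.77), and 54 and 85 UMIs, 1.74-fold (1.22–2.49). They share 71.6% and 66.8% of their 90-base stretches with other members, so the limit given above for Hist1h2an holds for them too. Hist1h3a, an H3 gene, had 2.65 and 4.38 CPM, 1.65-fold (1.38–1.98), and the H4 gene Hist4h4 on chromosome 6 had 1.28-fold (0.980–1.68). The lowest was Hist3h2ba with 1926 and 350 UMIs, 0.201 (0.178–0.225), and then the H2A genes Hist1h2ae, 0.241 (0.229–0.254), Hist1h2ap, 0.246 (0.236–0.256), and Hist1h2ab, 0.313 (0.290–0.339), and the H4 gene Hist1h4c, 0.328 (0.295–0.364). The lowest 5 thus held 3 H2A genes, 1 H2B gene and 1 H4 gene. Hist1h2ap and Hist1h2ab share 92.4% and 53.6% of their 90-base stretches with other members, so the same limit holds for them. Hist1h2ae shares 31.9%, Hist1h4c 15.2% and Hist3h2ba 0%. The H1 genes Hist1h1e, Hist1h1c and Hist1h1d stood at 1.16 (1.13–1.20), 1.16 (1.11–1.23) and 1.13 (1.05–1.22). With at least 100 UMIs required, the interval lay below 1 in 48.5% of all genes and 41 of 58 members, and above 1 in 31.5% and 8 members.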

How the data were processed

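Nuclei of pooled mouse kidneys were measured in 1 library per age. The authors deposited unnormalized UMI counts for each gene in each barcode, made with Cell Ranger. The processing notes give release 5.0.1 and build mm10 for both libraries, whereas the matrix header at E18.5 names release 7.0.0. Whether intronic reads were counted is not given in the sources used here. Cell Ranger keeps reads that map to 1 place, so near-identical histone copies can lose reads or share them unevenly.

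Quality limits followed the study's methods: 3 median absolute deviations below the median log UMIs or genes, and 3 above the median mitochondrial share, at least 0.5 percentage points over it. The study also called nuclei by testing each barcode against free RNA of empty droplets, a step not repeated here. It reports fewer nuclei at both ages than were kept here, so the nuclei are not the study's set. Levels are CPM, UMIs summed over nuclei per 1000000 UMIs of all genes. They count captured RNA only, and the captured share of messages without a poly(A) tail was not measured. Levels carry exact Poisson intervals, shares Clopper-Pearson intervals, and ratios exact conditional binomial intervals, all at 95%. No test was run, since each age has 1 library. A member was counted past a fold of 2 where the compared groups held at least 50 UMIs of it, and the same rule was applied to all genes. Doublet calls came from the scrublet function of scanpy 1.11.5, and called nuclei were kept. Clusters came from scran 1.30.0, scater 1.30.1, bluster 1.12.0 and igraph 2.1.4 in R 4.3.3, with 2000 variable genes, 50 components, 10 neighbors and Walktrap, without histone and cell cycle genes. A cluster was named from at least 3 raised markers. The S and G2/M lists came from Seurat 5.3.0. Python 3.11.15, numpy 2.4.6, scipy 1.17.1, pandas 2.3.3 and matplotlib 3.10.9 were used for the rest. The steps that count genes past a fold were tested on simulated counts drawn at the totals of the compared groups. The simulation held no differences in depth between nuclei and no doublets, so it covers counting error only.

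Gene positions and transcripts came from GENCODE M21, in which 32235 of the 32285 identifiers were found, and promoters from RefSeq. Full values are given for the 5 highest and 5 lowest of the members with at least 100 UMIs, by the Top2a and Mki67 ratio at E18.5 and by the ratio of the ages, beside abundant members. Hist1h3h, Hist1h2bp and the head-to-head pairs were named after their values were seen. The members, the lists and the splits were chosen with earlier results of these data known. The alternatives were the barcode filter, doublets, the CPM denominator, members left out, other splits and folds, other clusterings and, chosen after the data were seen, leaving out the cluster of shallow nuclei.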

Additional observations from a re-analysis of the deposited data

Results flagged for a closer look

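The ratio of the summed histone level in nuclei with both Top2a and Mki67 over nuclei with neither was 0.868 at E18.5 and 1.71 at P3, with intervals for counting error on opposite sides of 1. Nuclei were grouped in the same way in both libraries, and the difference between the ages was not tested because each age has 1 library. With at least 1000 UMIs required, 11 of 21 members and 1.44% of all genes had an interval below 1 at E18.5 and above 1 at P3. The H1 genes were Hist1h1b with 0.920 at E18.5 and 2.79 at P3, Hist1h1e with 0.900 and 1.62, Hist1h1c with 0.889 and 1.25, and Hist1h1a with 0.828 and 2.64. The H2A genes were Hist1h2ap with 0.857 and 2.19, Hist1h2ae with 0.756 and 1.73, Hist1h2ab with 0.717 and 1.40, and Hist2h2ac with 0.807 and 1.28. The H3 genes were Hist1h3e with 0.772 and 1.57 and Hist1h3c with 0.820 and 1.58, and the H4 gene was Hist1h4h with 0.796 and 1.24. These ratios were not matched for depth. At 3000 to 6000 UMIs the summed ratio at E18.5 was above 1, at 1.19. The E18.5 interval at that depth lay below 1 in 20.2% of all genes and 2 of 58 members. Those were Hist3h2ba and Hist3h2a, which are not among the 11 listed here. For Hist1h1b, Hist1h2ap and Hist1h1e it lay above 1.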

How the results depend on the processing

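The summed level at E18.5 was 1071 CPM over all deposited barcodes, 1188 without called doublets, 922 without Hist1h1b, 918 without members that overlap another gene and 950 without the cluster of shallow nuclei. At P3, in the same order, it was 611, 651, 523, 465 and 571. Per 1000000 UMIs of genes with 1 exon it was 335655 and 291451. P3 over E18.5 was 0.548 without doublets, 0.868 against genes with 1 exon, 0.507 without overlapping members and 0.601 without the shallow clusters.

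The Top2a and Mki67 ratio at E18.5 turned above 1 in 3 settings: 1.03 against genes with 1 exon, 1.22 after thinning to 1000 UMIs and 1.19 at 3000 to 6000 UMIs. Below 1 it was 0.961 without doublets, 0.847 without overlapping members, 0.783 for at least 2 UMIs of both genes, 0.919 for 1 UMI of either and 0.940 without the shallow cluster. At P3 it was 2.08 without doublets, 1.59 without Hist1h1b, 1.84 for 2 UMIs, 1.44 for either gene, 2.0 after thinning, 2.21 at matched depth and 1.88 without the shallow cluster. Members past 2-fold at E18.5 numbered 2 over all barcodes, 0 for either gene, 4 after thinning, 2 at matched depth, 0 with a minimum of 200 UMIs, 4 at a fold of 1.5 and 2 without the shallow cluster. At P3 they numbered 25 without doublets, 10 for either gene, 8 with a minimum of 200 UMIs and 32 at a fold of 1.5. Among these settings the share over all genes was computed only at matched depth, where it was 2.75% at E18.5 beside 2 of 41 members. The other counts have no such share beside them and say nothing about the members as a set.

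The shallow over deep ratio at E18.5 was 3.35 without doublets, 1.5 against genes with 1 exon, 3.86 without overlapping members, 3.51 for the lowest over the highest quintile of nuclei and 2.23 without the shallow cluster. At P3 it was 2.55, 1.28, 2.98, 2.41 and 1.62. Nephron progenitor-like over podocyte-like nuclei at E18.5 was 1.46 over all barcodes, 1.13 without doublets and 1.28 with 20 neighbors. At P3 a nephron progenitor-like class was named only with 20 neighbors, at 1.66, and the other settings gave no value. Of the remaining alternatives, 32 moved a value by less than its interval, or a count by less than 1.5 times.

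Leaving out the shallow clusters was chosen after seeing the data. The causes of these shifts were not tested. No paired analysis was possible because each age has 1 library and no replicate. Depth limits members of few UMIs: those under 100 UMIs have intervals too wide to rank.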
